A study of Mus musculus with 36 samples.

Results

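The brains of juvenile male mice that carry 1 mutant copy of Chd8 were compared with those of wild-type males of the same age, postnatal day 25 (P25). The comparison holds the 6 P25 male libraries of a series of 36, chosen by age and sex as labelled, with 3 libraries of heterozygous Chd8+/S62X mice (HT) and 3 of wild-type mice (WT), from 3 mice a group. HT and WT are used for the libraries so labelled, and the reads, which could show the allele, were not analysed here. All 6 are of the C57BL/6 strain, and the tissue is whole brain. The S62X allele is a nonsense mutation in the germ line that follows a human mutation linked to autism, so every cell of an HT mouse carries it, and the WT mice carry no altered allele. The 6 P25 female and the 6 P80 (adult) male libraries of both genotypes, which share no library with this comparison, were used only to see whether the same differences were present there. Of 29799 genes in the table, 18068 had a mean normalized value of at least 10 over the 6 P25 male libraries and were tested. The deposited values are normalized, so the sum over a library, 34113195 to 35029432, is not its depth, which is unknown here.

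CHD8 is a chromatin remodeler of the chromodomain helicase family, which moves nucleosomes with the energy of ATP and binds at the promoters of many genes. Loss of 1 copy of the human gene is one of the best established single-gene causes of autism, often with enlargement of the head. In the brain CHD8 is known above all for its role in dividing progenitors, and it also acts on beta-catenin and p53 targets.

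The S62X allele ends the reading frame early. In GRCm38, codon 62 of Chd8 (ENSMUSG00000053754) lies at chr14:52237387-52237389 on the minus strand, in exon 2 of transcript ENSMUST00000200169, and 61 of the 2582 residues of the protein precede it. Codon 62 was taken from the name of the allele, and the edited bases were not read here. The reference sequence of this codon and of 5 codons on each side has the serine codon in capitals (chr14:52237372-52237404, read 5′ to 3′ on the minus strand):
Chd8 codon 62: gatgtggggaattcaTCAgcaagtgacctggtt

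In the P25 males Chd8 RNA was higher, not lower, in HT. The normalized value of Chd8 was 6204, 6474 and 6691 in the HT libraries and 4132, 3623 and 4166 in the WT libraries. Every HT library was above every WT library, with means of 6456 ± 244 and 3973 ± 304 (SD, n = 3 each). The difference was 0.70 on the log2(value + 1) scale (SE 0.063), a ratio of 1.62, and passed limma's test across all genes after Benjamini-Hochberg adjustment (adjusted p = 0.0162, and 0.00333 with the replicate number as a block). When 1 library was left out the difference of Chd8 passed only without HT library 1 (adjusted p = 0.0203, otherwise 0.0524 to 0.142), and in one model of all 36 libraries the limma adjusted p was 0.713. An exact two-sided permutation test of 3 against 3 gave p = 0.1, which is the smallest it can give. The gene row counts reads from both alleles together, so these values do not say how much RNA came from the mutant copy and say nothing of the protein. In the P25 females the log2 difference was 0.54 (limma, unadjusted p = 1.07e-05, adjusted p = 0.0723), and in the P80 males 0.47 (unadjusted p = 6.80e-06, adjusted p = 0.0410), with HT above WT in every library of both. The P25 male difference exceeded that of the females by 0.16 (SE 0.098, interaction, limma unadjusted p = 0.127) and that of the P80 males by 0.23 (SE 0.090, unadjusted p = 0.0237, adjusted p = 0.9998), and neither interaction passed after adjustment. Among the 15 other tested genes that start within 1 Mb of Chd8 the log2 differences ran from -0.70 to 0.27, the smallest p was 0.0992 and 0 had an unadjusted p under 0.05.

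Beside Chd8, 2 genes passed the test, so that 3 of 18068 (0.0166%) were called at an adjusted p under 0.05. Entpd4, which encodes a nucleoside diphosphatase of the Golgi and lysosome membranes, was lower in HT. Its normalized value reached 3439, 3429 and 3508 in HT and 4650, 4548 and 4541 in WT, so that the genotypes were far apart and the libraries of each nearly equal. The log2 difference of Entpd4 was -0.40 (SE 0.043, limma adjusted p = 0.0359), a ratio of 0.755. The adjusted p of Entpd4 was 0.0716 to 0.313 when 1 library was left out and 1 in one model of all 36 libraries. The values were alike in the other mice, with log2 differences for Entpd4 of -0.35 in the P25 females (unadjusted p = 1.31e-05) and -0.39 in the P80 males (unadjusted p = 3.76e-06).

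Entpd4 cannot be told from its copy by sequence. The gene lies at chr14:69337174-69367270 in GRCm38, 17.1 Mb from Chd8 on the same chromosome. Of its 8149 distinct stretches of 31 bases, 100% are also found in Entpd4b, a near-identical protein-coding gene in the same region, which has no row in the table, so the row named Entpd4 may hold reads of both. Of the 22 tested genes that start within 1 Mb of Entpd4, 3 had an unadjusted p under 0.05, all lower in HT (1.77% of all genes were), and the other 2 overlap or share sequence with it. Gm16867 had normalized values of 240, 281 and 251 in HT and 493, 475 and 369 in WT (log2 difference -0.78, adjusted p = 0.321). Gm27177, annotated as an antisense gene, had 179, 137 and 159 in HT and 293.0, 280.0 and 336 in WT (log2 difference -0.94, limma adjusted p = 0.130, and 0.0480 with the replicate block). Both are gene models without a known function that were singled out after their values were seen. Gm27177 shares 100% of its 31-base stretches with Gm16867 and 23.9% with Entpd4, and the library kit does not mark strand, so the 3 rows are not independent and how reads were divided among them is uncertain.

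The third gene called was Gm42429 (chr5:44134393-44134950), a gene model of unknown function. It was listed at 33.2, 21.3 and 66.3 in HT and at 0 in all 3 WT libraries (limma adjusted p = 0.0162), and no fold is given against a group at 0. Gm42429 thus reached the minimum mean of 10 only through HT, so nothing further is read from this test. It was also called without a filter. The call of Gm42429 was lost without any 1 library (adjusted p = 0.0524 to 0.197), with a pseudocount of 10 (0.136), and in one model of the 12 P25 (0.249) or of all 36 libraries (1), and at a minimum mean of 100 it was not tested. All of its 31-base stretches (100%) are shared with Gm42427, which had a mean normalized value of 986 in HT and 983 in WT and was singled out after its values were seen, so these low values may depend on how reads were divided between the copies, which was not tested. Gm42429 was at 0 in the P80 male libraries and in all but 1 of the P25 female libraries. With the replicate number as a block, 5 genes (0.0277%) were called, the added ones being Gm27177 and AC102496.1, a long noncoding RNA with 169, 223 and 201 in HT and 347, 385 and 368 in WT (log2 difference -0.90, adjusted p = 0.0234 with the block and 0.122 without). Of the 31-base stretches of AC102496.1, 57.9% occur in other genes, among them Gm42427 and Gm42429.

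**Figure D1:**
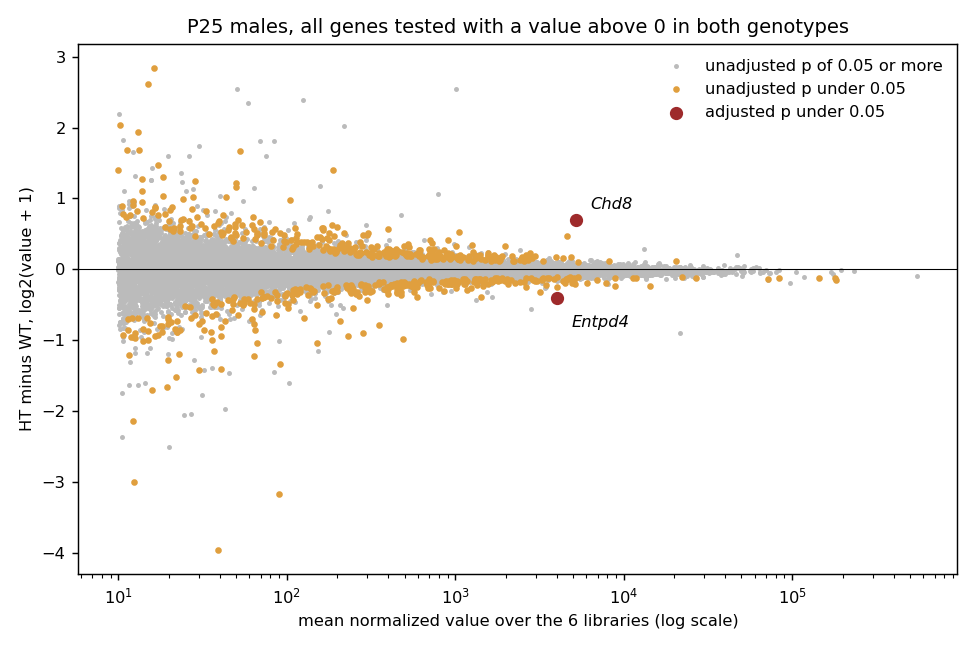
Difference between HT and WT in P25 males on the log2(value + 1) scale against the mean normalized value over the 6 libraries (log axis), 1 point a gene, with Gm42429 and other genes at 0 in a whole genotype left out. Most points lie near 0, and Chd8 at 0.70 and Entpd4 at -0.40 are the genes plotted that passed the adjusted test.

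Beyond these, the differences were small. At an unadjusted p under 0.05 there were 629 genes (3.48% of those tested), 309 higher in HT (1.71%, median log2 difference 0.297) and 320 lower (1.77%, median -0.272), and with the replicate block there were 1359 (3.28% higher and 4.24% lower). The median over all genes was -0.00481, with 47.7% of genes above 0 and 52.3% below. In 740 genes (4.10%) every HT library was above every WT library and in 804 (4.45%) every one was below, together 8.55%. Of the named genes that follow, none passed the adjusted test unless it is said.

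The 12 genes highest in the order of p with every HT library above every WT library were Chd8, Mybpc1, Krt10, Dusp5, Ccdc167, Reep4, Pan2, Klf10, Ccdc163, Tiparp, Lrrc27 and Akap2, with log2 differences from 0.196 to 0.703. Mybpc1, a myosin-binding protein best known from skeletal muscle, had normalized values of 488, 458 and 487 in HT and 325, 295 and 351 in WT, a log2 difference of 0.56 (SE 0.088, unadjusted p = 0.00012). The 3 HT libraries of Mybpc1 were close together and all above 450, and the WT libraries did not reach them. Pan2, the catalytic subunit of a deadenylase that shortens poly(A) tails, had 1688, 1695 and 1710 in HT and 1389, 1495 and 1438 in WT (log2 difference 0.24, unadjusted p = 0.00146). Krt10, a keratin, had 332, 308 and 352 in HT and 230, 228 and 248 in WT (log2 difference 0.49, unadjusted p = 0.000448). In the P25 females 8 of these 12 genes had a difference of the same sign, 5 of them at an unadjusted p under 0.05 (Ccdc163, Chd8, Krt10, Mybpc1 and Pan2). In the P80 males 9 had, 3 of them at that threshold (Chd8, Mybpc1 and Pan2). Of all genes 2.98% were higher at that threshold in the P25 females and 2.06% in the P80 males. Of all genes at an unadjusted p under 0.05 in P25 males, 62.8% and 69.7% had the same sign there. The 12 include Chd8, the targeted gene.

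The 12 lower genes by the same rule were Entpd4, AC102496.1, Usp11, Cdk5rap3, Tnnt2, Kcnj2, Cnnm2, Hmgb3, Ddo, Dhx35, As3mt and Arap3, with log2 differences from -0.895 to -0.255. Usp11, a deubiquitinase encoded on the X chromosome, had normalized values of 3708, 3587 and 3631 in HT and 4473, 4195 and 4376 in WT, with no overlap (log2 difference -0.26, SE 0.047, limma adjusted p = 0.0856 with the replicate block). Ddo, the oxidase that breaks down D-aspartate, had 268, 271 and 228 in HT and 310, 354 and 372 in WT (log2 difference -0.43, unadjusted p = 0.00308). Kcnj2, an inward rectifier potassium channel, had 559, 492 and 497 in HT and 750.0, 665 and 617 in WT (log2 difference -0.39, unadjusted p = 0.00209). Hmgb3, a chromatin protein of the high mobility group, had 1073, 1161 and 1148 in HT and 1354, 1275 and 1450 in WT (log2 difference -0.27, unadjusted p = 0.00286). Of the 12, 11 were below 0 in the P25 females as well and 10 in the P80 males, with Entpd4, Usp11 and Ddo at an unadjusted p under 0.05 in both. Of all genes 3.03% were lower at that threshold in the females and 2.54% in the P80 males. The same-sign shares of 62.8% and 69.7% stand beside these counts too. For Usp11 the log2 difference was -0.36 in the females (unadjusted p = 9.19e-06) and -0.30 in the P80 males (unadjusted p = 9.98e-05).

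**Figure D2:**
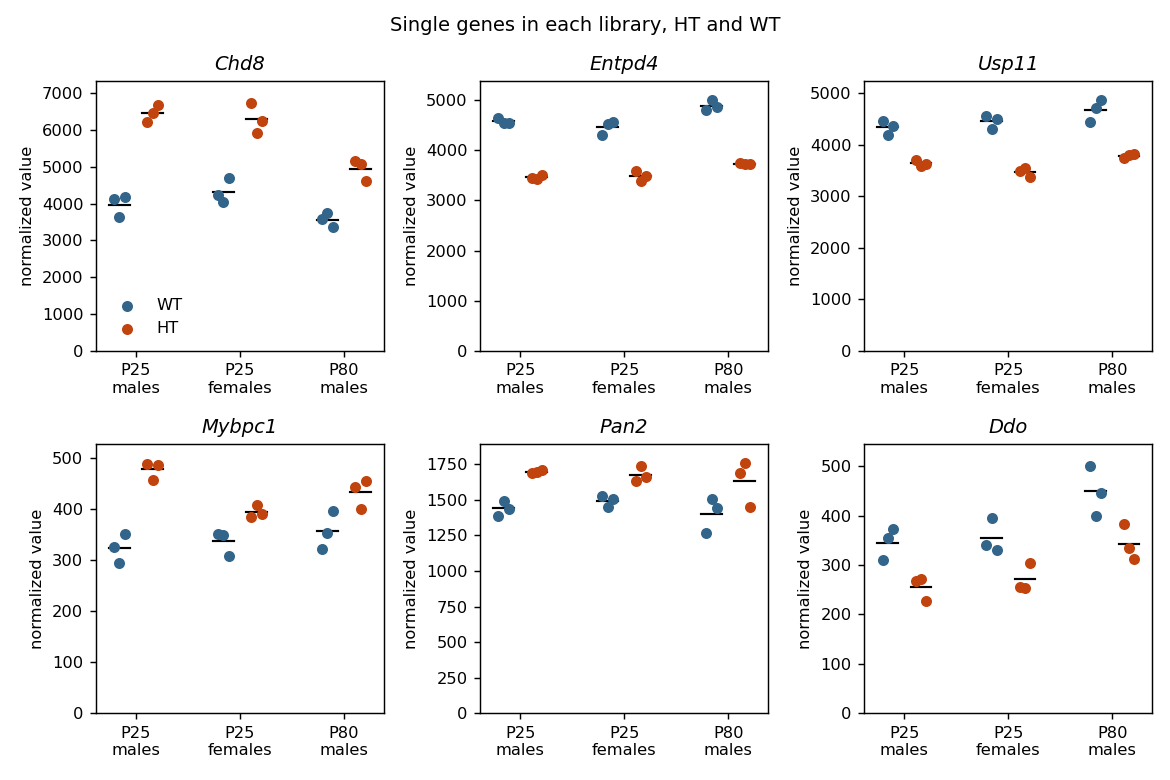
Normalized value in each library (vertical axis, from 0) of 6 of the genes described, for P25 males, P25 females and P80 males, with WT in blue, HT in orange and a line at each mean of 3. In P25 males no HT library of Chd8, Entpd4, Usp11, Mybpc1, Pan2 or Ddo lies within the range of the WT libraries, and the means lie on the same side in the other mice.

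Among all genes at an unadjusted p under 0.05 in P25 males that were also tested in the other mice, 388 of 618 (62.8%) had the same sign in the P25 females and 427 of 613 (69.7%) in the P80 males. No gene passed the test of a difference between the P25 males and the P25 females (limma, 0 of 18146, and 615 or 3.39% at an unadjusted p under 0.05) or between the P25 and the P80 males (0 of 18126, and 445 or 2.46% at an unadjusted p under 0.05). The genes with the smallest p and a mean of at least 100 were Mycbpap, Fbxo46 and Bag2 for sex and Naa35, Cnnm2 and Dusp5 for age. Mycbpap had a log2 difference of 0.46 in the males and -0.79 in the females (interaction, limma unadjusted p = 0.000441, adjusted p = 0.9998), and Naa35, a subunit of an N-terminal acetyltransferase, 0.10 in the P25 and -0.49 in the P80 males (interaction, limma unadjusted p = 0.000504, adjusted p = 0.9998).

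Of the 37 lists described here, genes that neurons switch on with activity had the most members higher in HT. This first place rests on members named in the study's own table. Without them 3 were higher, against 5 in the mitosis list, which itself holds 4 such members. Of 59 tested members of this list, 42 had a log2 difference above 0, and 14 were higher and 2 lower at an unadjusted p under 0.05, against 1.71% and 1.77% of all genes, and 0 passed the adjusted test. With the replicate block 17 were higher and 5 lower. The median was 0.0961, against -0.00481 over all genes, and 0.0411 without WT library 3. In one model of all 12 P25 libraries 9 were higher and in one of all 36 libraries 4. The list is not independent of these libraries: 12 of its members are named in the study's own table for them, and of the 47 others 3 were higher (Arc, Ier5l and Dusp4) and 1 lower (Sgk1), with a median of 0.0632. The 3 became 6 with the replicate block, 1 in the model of 12 and 0 in that of 36 libraries, and 2 to 10 when 1 library was left out, most without WT library 1.

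By role, the transcription factors of the group were Nr4a3, an orphan nuclear receptor, Klf10 and Klf4, zinc finger proteins, Fosl2, a partner of the AP-1 complex, and Csrnp1. Nr4a3 had normalized values of 1062, 1251 and 1427 in HT and 1038, 858 and 718 in WT (log2 difference 0.52, SE 0.141, unadjusted p = 0.00489). The lowest HT library of Nr4a3 was only just above the highest WT library, and both carry the number 1. Fosl2 had 1038, 972 and 1070 in HT and 915, 781 and 640 in WT (log2 difference 0.41, unadjusted p = 0.00631). Klf10 had 781, 798 and 900 in HT and 694, 604 and 614 in WT (log2 difference 0.37, unadjusted p = 0.0015). Neither gene overlapped between the genotypes.

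The second set acts on kinase signalling. Dusp5 and Dusp4 are phosphatases that switch off MAP kinases, Sik1 is a kinase that is itself a target of CREB, and Trib1 is a pseudokinase. Dusp5 had normalized values of 1154, 1146 and 1097 in HT and 861, 951 and 897 in WT, with the smallest p of the list (log2 difference 0.33, SE 0.062, unadjusted p = 0.000505). Sik1 had 619, 528 and 627 in HT and 435, 445 and 500.4 in WT (log2 difference 0.36, unadjusted p = 0.00387). Trib1 had 697, 763 and 859 in HT and 636, 610 and 649 in WT (log2 difference 0.29, unadjusted p = 0.00798). In each of the 3 the genotypes did not overlap.

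Arc, which acts at the synapse on the uptake of AMPA receptors, had 5775, 4413 and 5699 in HT and 4607, 3863 and 3104 in WT (log2 difference 0.46, unadjusted p = 0.0104), and here the genotypes overlapped, HT library 2 lying below WT library 1. Per1, a clock gene that activity also induces, had 2854, 3012 and 3161 in HT and 2425, 2694 and 2607 in WT (log2 difference 0.22, unadjusted p = 0.0046). Fos and Npas4, classical first-wave genes singled out after their values were seen, overlapped between the genotypes. Fos had 1564, 1002 and 1407 in HT and 1425, 1122 and 713 in WT, and Npas4, which responds to neuronal depolarisation most selectively, had 838, 441 and 634 in HT and 1020, 781 and 617 in WT (log2 difference -0.35, unadjusted p = 0.163). The 2 lower members were Ppp1r15a, a stress-induced phosphatase subunit, with 410.0, 410 and 428 in HT and 467, 539 and 615 in WT, and Sgk1, a kinase induced by glucocorticoids, with 1545, 1561 and 1523 in HT and 1592, 1786 and 1849 in WT.

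In the other mice the activity-regulated genes did not share this direction. Of the 59, 22 were above 0 in the P25 females, with a median of -0.0379, and 8 in the P80 males, with a median of -0.0797. In the females 0 were higher and 1 lower at an unadjusted p under 0.05 (2.98% and 3.03% of all genes), and in the P80 males 0 and 4 (2.06% and 2.54%). The difference itself was tested gene by gene: at an unadjusted p under 0.05 the male difference exceeded the female one in 8 of 59 members and fell short of it in 1, where 1.68% of all genes exceeded it, and the P25 difference exceeded the P80 one in 16 and fell short of it in 0, where 1.21% of all genes exceeded it. The 12 members named in the study's table were chosen for the male difference that enters these tests, and among the 47 others the counts were 2 and 1 for sex and 6 and 0 for age. None of these passed after adjustment. The libraries of a group differed widely in these genes: Arc ran from 1274 to 5799 in the P25 female WT libraries.

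**Figure D3:**
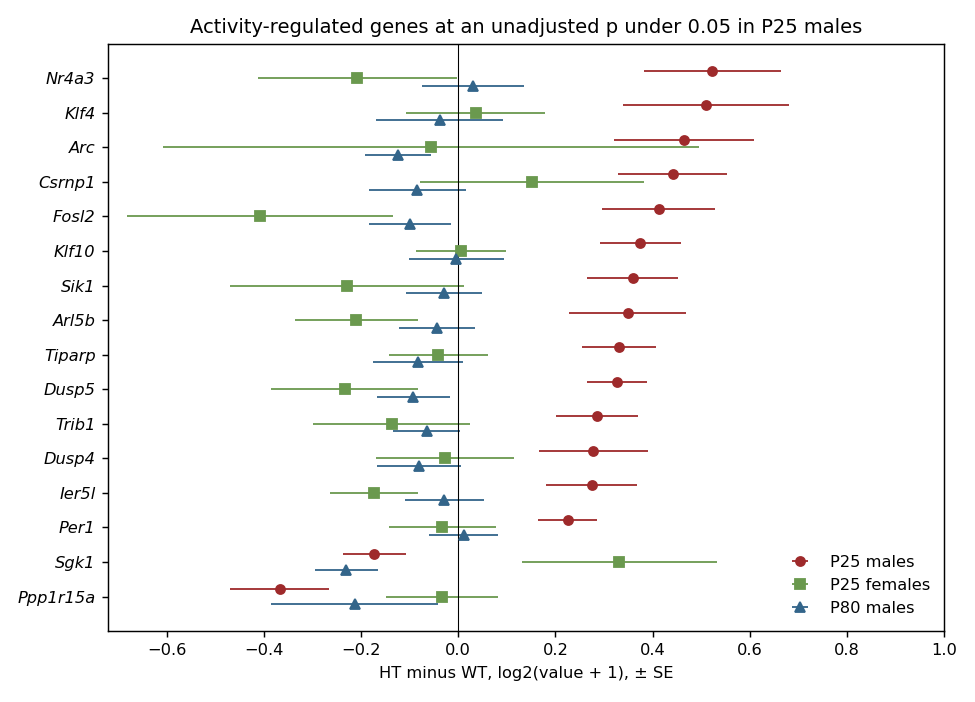
HT minus WT on the log2(value + 1) scale with its SE for the 16 activity-regulated genes at an unadjusted p under 0.05 in P25 males, which were chosen for that difference (red circles), beside the same genes in P25 females (green squares) and P80 males (blue triangles). In P25 males the 14 higher genes lie between 0.225 and 0.523, while in the females they run from -0.408 to 0.152 and in the P80 males from -0.123 to 0.0299.

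The promoters of these genes were read because CREB, the factor through which calcium and cyclic AMP act on many of them, binds the palindrome TGACGTCA or its shorter form, TGACG. Of the 14 higher genes 9 had an entry among the RefSeq promoters (GRCm38.p6, 250 bases before to 50 after the gene start). The short form, searched on both strands as TGACG or CGTCA, was found in 6 of the 9 (Dusp5, Csrnp1, Per1, Nr4a3, Klf4 and Arl5b), and in 23.0% of all 27025 genes with a promoter. The whole palindrome, which contains the short form on both strands, was found in 1 (Arl5b) and in 2.03% of all. A match is a description of the sequence and not a binding site. A gene was counted if any of its windows held a match (13 windows for the 9 genes, 32851 for all). The 9 come from a list of genes that activity switches on, and its members that were not higher were not counted apart. The comparison with all genes therefore says nothing of the genotype. The stretches just before the RefSeq start of the genes are shown for 3 of them, with the matches in capitals, all on the plus strand. In GENCODE these 3 genes start further upstream, Arl5b at chr2:15049395 rather than 15055320.
Nr4a3 (chr4:48045105-48045304): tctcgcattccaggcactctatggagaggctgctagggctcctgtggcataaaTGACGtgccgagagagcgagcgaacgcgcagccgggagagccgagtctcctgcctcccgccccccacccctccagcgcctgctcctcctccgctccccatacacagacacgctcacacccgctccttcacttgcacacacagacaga
Arl5b (chr2:15055160-15055319): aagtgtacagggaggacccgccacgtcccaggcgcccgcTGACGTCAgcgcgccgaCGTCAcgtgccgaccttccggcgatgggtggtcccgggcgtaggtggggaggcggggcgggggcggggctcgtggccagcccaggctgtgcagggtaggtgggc
Dusp5 (chr19:53528985-53529144): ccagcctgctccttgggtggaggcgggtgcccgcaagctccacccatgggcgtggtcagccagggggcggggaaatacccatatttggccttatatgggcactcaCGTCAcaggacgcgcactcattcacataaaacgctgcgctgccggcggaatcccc
Arl5b, a small GTPase of the Arf family, had normalized values of 1172, 1472 and 1604 in HT and 1048, 1253 and 1021 in WT (log2 difference 0.35, unadjusted p = 0.0176), and WT library 2 was above HT library 1.

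The mitochondrially encoded genes, which code for subunits of the respiratory chain and for the ribosomal RNAs of the organelle, had differences below 0 for the most part, of which none passed the adjusted test. Of the 15 tested, 14 had a log2 difference below 0 and 5 were lower at an unadjusted p under 0.05, with 0 higher and a median of -0.1, where 52.3% of all genes were below 0 and 1.77% were lower. In the study's table for these libraries 2 members are named. The list is therefore not independent of these libraries, and its counts without these 2 are not given. The count of 5 was 2 to 5 when 1 library was left out, lowest without HT library 3 or WT library 1, and 0 in one model of all 12 P25 or all 36 libraries. The 5 were mt-Nd2, mt-Nd3, mt-Nd4 and mt-Nd5, subunits of complex I, and mt-Cytb of complex III. For mt-Nd2 the libraries had 67829, 68595 and 67102 in HT and 75068, 74809 and 74964 in WT, so that each genotype was narrow and the gap between them wide beside it (log2 difference -0.14, SE 0.043, unadjusted p = 0.00832). For mt-Nd5 they had 79994, 81834 and 79447 in HT and 89219, 86614 and 86345 in WT (log2 difference -0.12, unadjusted p = 0.0256). All mitochondrially encoded genes together made up 4.54%, 4.69% and 4.77% of the summed values in HT and 4.87%, 4.92% and 4.95% in WT, again with no overlap. With median-of-ratios scaling 5 members were likewise lower at an unadjusted p under 0.05. Under quantile normalization, which by its construction sets genes of the same rank equal in all libraries and so fixes the most abundant ones, the median of the list was 0 and 1 member was lower. In the P25 females the median was 0.0792 and in the P80 males -0.0486.

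The nuclear partners were below 0 in larger part than all genes, with smaller values. Without HT library 1, which also breaks a pair, their medians were on the other side of 0. Within the pairs of the same number the mean of the list was lower in HT in all 3 for the cytosolic ribosome (differences of -0.0991, -0.0463 and -0.0195) and for oxidative phosphorylation (-0.0579, -0.0185 and -0.00567), and in 2 of 3 for the mitochondrial ribosome (-0.0504, -0.0175 and 0.0186). Of 79 genes of the cytosolic ribosome 66 were below 0 (median -0.0537), and 5 were lower at an unadjusted p under 0.05 and 0 higher, against 1.77% and 1.71% of all genes. With the replicate block 19 were lower and 1 higher (4.24% and 3.28% of all genes), while 0 to 10 were lower when 1 library was left out, 0 without WT library 2 and 1 without HT library 1, and 0 in the model of all 36 libraries. Rps21, a protein of the small subunit, had 2826, 3256 and 3507 in HT and 3645, 3915 and 3598 in WT (log2 difference -0.22, unadjusted p = 0.0191). The HT library with the lowest value carries the number 1, and without that library the median of the list was 0.0206. Of 75 nuclear genes of oxidative phosphorylation 56 were below 0 (median -0.0266), with 2 lower, Ndufa10 and Ndufc2, both of complex I, and 6 lower with the replicate block, and without HT library 1 the median was 0.025. In the study's table for these libraries 1 member of this list is named. Ndufa10 had 4389, 4036 and 4167 in HT and 4859, 4514 and 4959 in WT (log2 difference -0.19, unadjusted p = 0.00794). Of 77 genes of the mitochondrial ribosome 47 were below 0 (median -0.0163, and 0.0178 without HT library 1), and Mrpl11 was lower (log2 difference -0.21, unadjusted p = 0.0117).

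Synaptic genes had small differences, more of which passed an unadjusted p of 0.05 with the replicate block. Of 56 genes of the excitatory synapse (AMPA and NMDA receptors, scaffolds and kinases) 44 were below 0, with a median of -0.0376 and a range of -0.140 to 0.144, and 0 had an unadjusted p under 0.05. Of 63 presynaptic genes 44 were below 0 (median -0.0251) and 1, Doc2a, a calcium sensor of spontaneous release, was lower at an unadjusted p under 0.05, a share near the 1.77% of all genes, with 866, 916 and 883 in HT and 1001, 967 and 1000 in WT (log2 difference -0.16, unadjusted p = 0.0246). Of 33 genes of the inhibitory synapse 22 were below 0 (median -0.0173), with 0 at an unadjusted p under 0.05. Excitatory neuron markers were below 0 in 23 of 29 (median -0.0593) and inhibitory neuron markers in 18 of 29 (median -0.0264), also with 0 at this threshold. With the replicate block, where 4.24% of all genes were lower and 3.28% higher, 6 excitatory synapse genes were lower and 2 higher, 10 presynaptic genes lower and 1 higher, and 6 excitatory neuron markers lower and 0 higher. For the inhibitory synapse and the inhibitory neuron markers these counts were 2 lower and 1 higher each. In the excitatory synapse, presynapse and excitatory neuron lists the mean of the list was lower in HT in each of the 3 pairs of the same number, with differences of -0.0739 to -0.00765. Without WT library 1 the medians were -0.00386, -0.00539 and 0.00362. When 1 library was left out the inhibitory synapse median ran from -0.0404 to 0.00445 and the inhibitory neuron median from -0.063 to -0.000158. In whole-brain RNA fewer cells of a type and less RNA per cell cannot be told apart.

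Medians of the glial and vascular markers were above 0, but not in every set of libraries, and 0 members had an unadjusted p under 0.05 in any of these lists. Above 0 were 22 of 29 astrocyte markers (median 0.0308), 19 of 29 oligodendrocyte markers (0.0194), 13 of 20 precursor markers (0.0205), 21 of 28 microglia markers (0.0727) and 22 of 28 markers of endothelium and mural cells (0.0463). Without WT library 1 the astrocyte median was -0.013 and the endothelium median 0.000107, and without HT library 2 the oligodendrocyte median was -0.0394 and the precursor median -0.035. With the replicate block, where 3.28% of all genes were higher and 4.24% lower, 5 astrocyte markers were higher and 2 lower, 4 microglia markers higher and 0 lower, 2 endothelium markers higher and 0 lower, 1 precursor marker higher and 1 lower, and 0 oligodendrocyte markers either way. The scale of the microglia median was set by the libraries numbered 1: the mean log2 deviation of the list was -0.161 in HT library 1 and -0.338 in WT library 1, and between 0.1 and 0.177 in the 4 other libraries, and without WT library 1 the median was -0.0769. The defining markers were present in every library, with Slc17a7, the vesicular transporter of excitatory neurons, at 27833 to 30962 and Aqp4, the water channel of astrocytes (added after its values were seen), at 6191 to 7690.

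Genes of mitosis were above 0 in 27 of 40 (median 0.127, and 0.0537 without HT library 3), with 5 higher and 1 lower at an unadjusted p under 0.05, against 1.71% and 1.77% of all genes, and 4 members are in the study's table for these libraries. The list is therefore not independent of these libraries, and its counts without these 4 are not given. Tacc3, a spindle protein, had 330, 274 and 316 in HT and 226, 243 and 234 in WT (log2 difference 0.38, unadjusted p = 0.00375). Bub1b, of the spindle checkpoint and singled out after its values were seen, had 168, 199 and 223 in HT and 103, 132 and 162 in WT (log2 difference 0.58, unadjusted p = 0.00937). Top2a, the topoisomerase that marks dividing cells, was the lower one, with 109, 146 and 119 in HT and 190, 155 and 184 in WT (log2 difference -0.50, unadjusted p = 0.00626). Of 28 genes of progenitors and immature neurons 14 were above 0, and Eomes (log2 difference 0.49, unadjusted p = 0.0139) and Nes (0.27, unadjusted p = 0.0352) were higher, with overlap between the genotypes in both. Eomes is also a member of the olfactory bulb list. In the study's table for these libraries 1 member of the progenitor list is named. With the replicate block 2 members were higher and 3 lower, against 3.28% and 4.24% of all genes.

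In the gene groups tied to CHD8 the counts were small, and over all genes the shares were 1.77% lower and 1.71% higher, or 4.24% and 3.28% with the replicate block. The 8 other members of the CHD family had log2 differences from -0.08 (Chd3) to 0.05 (Chd2), and 0 had an unadjusted p under 0.05. Of 35 subunits of the SWI/SNF, ISWI and INO80 remodelers 1, Ino80, was lower (log2 difference -0.16, unadjusted p = 0.0244). Among 37 targets and regulators of Wnt and beta-catenin signalling 1, the secreted inhibitor Wif1, was lower (log2 difference -0.36, unadjusted p = 0.0379), and among 29 p53 targets 1, the death receptor Fas (log2 difference -0.64, unadjusted p = 0.0490). Of 108 autism risk genes 71 were below 0 (median -0.0196, and -0.0429 to 0.00832 when 1 library was left out). Apart from Chd8 itself only Kdm6b, a histone demethylase, was under an unadjusted p of 0.05 (log2 difference 0.17, unadjusted p = 0.0156). With the replicate block 3 autism risk genes were higher, Chd8 and Kdm6b among them, and 6 lower, and of the other CHD family members Chd3 was lower (limma, unadjusted p = 0.0229 with the block).

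**Figure D4:**
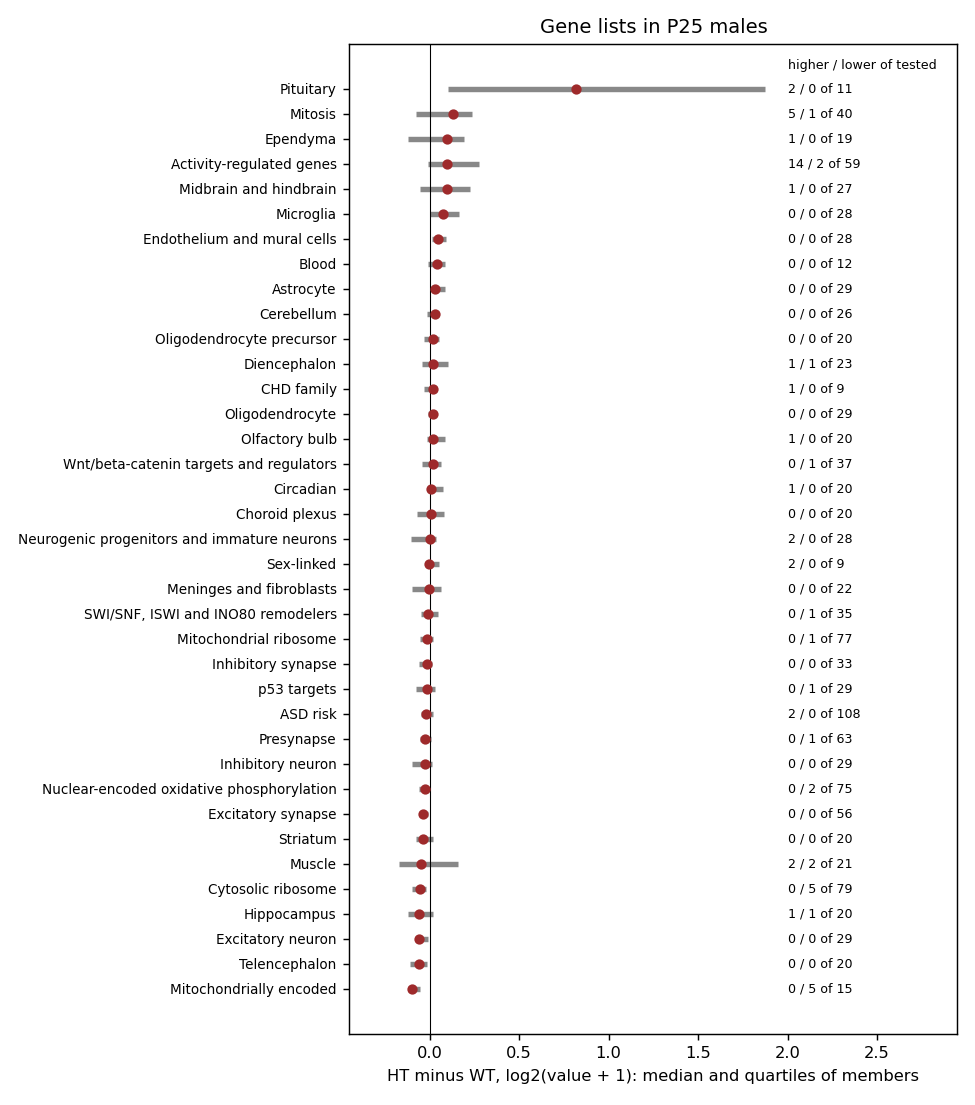
Median HT minus WT difference on the log2(value + 1) scale (red) and the range from the lower to the upper quartile of the tested members (grey bar) for the 37 gene lists in P25 males, with the members higher and lower at an unadjusted p under 0.05. Most medians lie within 0.1 of 0, and the mitochondrially encoded genes are lowest. The pituitary median, which is in part fixed by the filter on low values, stands above the others, and nothing is read from its place.

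Some libraries held RNA that the others nearly lacked. Growth hormone (Gh), made in the pituitary and singled out after its values were seen, stood at 0, 1656 and 4118 in HT and at 0.827, 227 and 82.7 in WT, so that the libraries numbered 1 had next to none and HT libraries 2 and 3 the most. Of 19 listed pituitary genes 11 passed the filter on low values, 10 of them above 0 (median 0.818, and 0.179 without HT library 3), and 2, Nr5a1 and Tshb, had an unadjusted p under 0.05, or 5 with the replicate block. Some passed the filter only through the HT libraries, such as Nr5a1 with a mean of 9.03 in WT and Prl, added after its values were seen, with 5.59, so these counts are in part fixed by the filter and nothing is read from them. The summed value of 25 Hox genes, which mark the hindbrain and spinal cord, came to 86.7, 722 and 682 in HT and 142, 248 and 303 in WT. Hoxb8 stood at 0, 73.6 and 47.9 in HT and at 0 in all 3 WT libraries, so that it too passed the filter only through HT. The part of these differences between libraries in the results above was not tested. Xist reached at most 38.6 in these libraries and at least 27373 in the P25 females, and Ddx3y of the Y chromosome was at 2012 to 2295, as the label male says.

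The remaining lists are of regions and other cells, and their counts stand beside 1.71% of all genes higher and 1.77% lower. At an unadjusted p under 0.05 there were 0 members of the choroid plexus, meninges, blood, telencephalon, striatum and cerebellum lists, with medians from -0.0595 (telencephalon) to 0.0397 (blood). When 1 library was left out, the medians in this paragraph ran over both sides of 0, save telencephalon (-0.118 to -0.0134) and circadian (0.0067 to 0.0338). The blood median then ran from -0.0668 to 0.193 and the midbrain and hindbrain median from -0.0436 to 0.207. The ependyma list had 1 higher (median 0.0975), the diencephalon list 1 higher, Nr5a1, and 1 lower (0.0198), and the midbrain and hindbrain list 1 higher, Hoxb8 (0.0950). The hippocampus list had 1 higher and 1 lower, Rprm (-0.0587), the olfactory bulb list 1 higher, Eomes (0.0174), and the circadian list 1 higher, Per1 (0.00889). Eomes is the gene already counted among the progenitor genes. In the sex-linked list 2 were higher, Xist and Eif2s3y (-0.00248). Nr5a1, Hoxb8 and Xist passed the filter on low values only through HT, so nothing is read from the counts that hold them. The muscle list had 2 higher, among them Mybpc1, and 2 lower, Tnnt2 and, outside the rule for named genes, Ttn (-0.0481). Of the muscle members 3 are in the study's table for these libraries, so that list is not independent of them. The same holds for 1 member each of the olfactory bulb, circadian and sex-linked lists. With the replicate block, where 3.28% of all genes were higher and 4.24% lower, 5 of 20 telencephalon members and 2 of 20 striatum members were lower with 0 higher, and 4 of 27 midbrain and hindbrain members were higher with 0 lower. In the other lists of this paragraph the block gave at most 2 members in either direction.

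**Figure D5:**
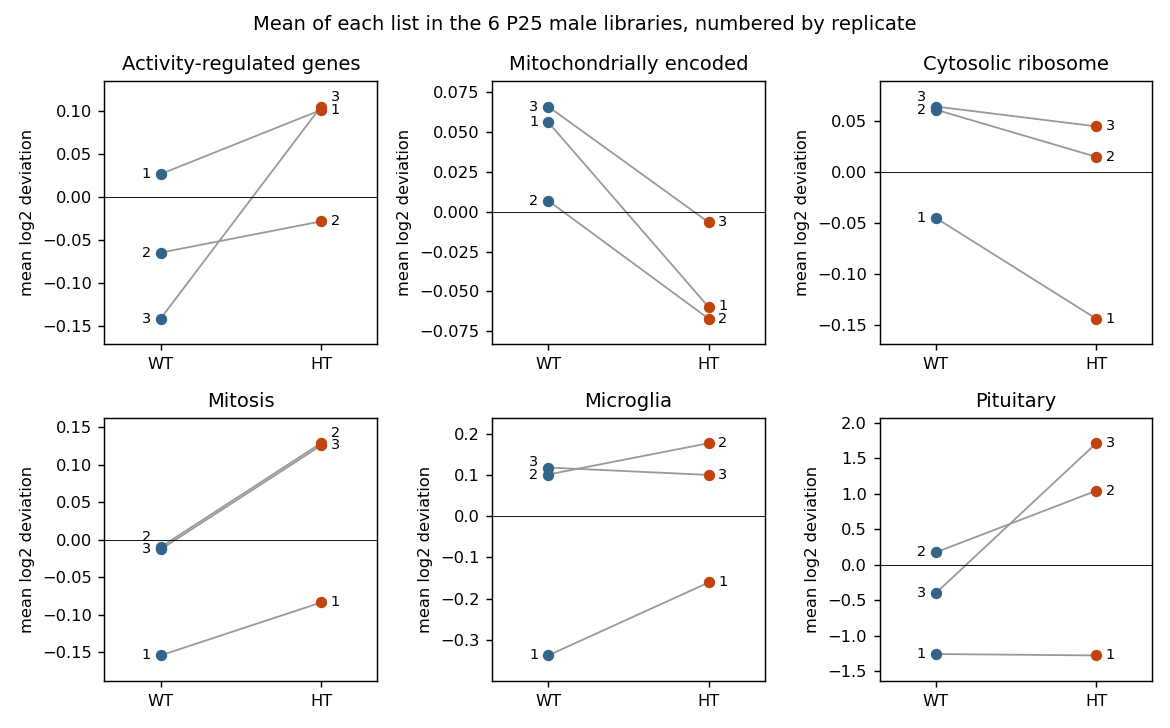
Mean log2 deviation of the members of 6 lists from their mean over the 6 P25 male libraries, less that of the median gene (vertical axis, scaled to each list), with a line joining the HT and WT libraries of the same number. All 3 lines fall for the mitochondrially encoded and the cytosolic ribosome genes and rise for the mitosis and the activity-regulated genes. Of the activity-regulated genes 12 are in the study's table for these libraries, and without them pair 2 falls, by 0.0294. Such members number 4 in the mitosis list and 2 in the mitochondrially encoded list. The libraries numbered 1 are lowest for the ribosome, mitosis, microglia and pituitary lists in both genotypes.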

How the data were processed

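RNA was measured by paired-end sequencing of whole brain, 3 mice a group. Per the labels and the study's methods, the authors quantified transcripts on GRCm38 with Salmon 1.1.0, imported gene-level estimates with tximport and normalized them with DESeq2 1.26.0 (the labels give R 3.6.2 and the methods another release); the annotation release is not given in the sources used here. The deposited signal is the estimated count of a gene divided by gene-specific normalization factors, so whole reads cannot be recovered, depth is unknown and no count model was used. All 36 columns matched a sample (0 unmatched). The column names and description fields of all P80 samples carry another age. Their titles and the study's methods give P80, on which the age comparison rests.

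Here, log2(value + 1) of genes averaging at least 10 across the 6 libraries was fitted by genotype with limma 3.58.1 in R 4.3.3 (lmFit, eBayes with a trend, two-sided, Benjamini-Hochberg, threshold 0.05), a fold on this scale understating the change of low genes. Interaction terms tested the difference from the P25 females and P80 males. The fit recovered known changes in simulated data, set in genes with a mean of at least 100 and in libraries that varied independently. Those changes were larger than most differences given here, so the simulation does not show how well smaller ones are found. The libraries compared and the 37 gene lists were chosen with earlier results of these data known, and 52 gene IDs had no symbol. Genes named are Chd8, those called, the 12 with the smallest p in each direction with a mean of at least 100, a symbol that is not a predicted gene model and no overlap, and per list the 2 highest and the 2 with the smallest p under 0.05; all CHD family, mitochondrially encoded and sex-linked genes, activity-regulated genes under an unadjusted p of 0.05, genes within 1 Mb of Chd8 and the leading genes of each interaction test were added. The replicate numbers were taken from the titles and were checked for pairing: the deviations of libraries of the same number correlated at 0.289, 0.189 and 0.140, each the highest for its library, so paired (block) values are given where they change a call. Positions and transcripts are from GENCODE vM21, promoters from RefSeq. Alternatives changed the filter, pseudocount, scaling, block, libraries, weights and variance prior.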

Additional observations from a re-analysis of the deposited data

How the results depend on the processing

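Depth is unknown here and 3 mice a group limit the precision, so that small differences may have been missed. The number of genes called (3, with 2 higher and 1 lower) was 5 with the replicate block or array quality weights (3 lower), and 0 in one model of all 36 libraries. A minimum mean of 100, a pseudocount of 10 or one model of the 12 P25 libraries left 1 higher gene, since Gm42429 was no longer called. When 1 library was left out, 0 to 2 genes were called, 0 to 2 higher and 0 lower: without HT replicate 1 these were Chd8 and Hoxb8, and without any of the other 5 none, which leaves fewer samples to the test. The log2 difference of Chd8 stayed between 0.64 and 0.74 when 1 library was left out, and was 0.70 in the model of 36 libraries, where its adjusted p was 0.713. The number at an unadjusted p under 0.05 was 1144 without a filter, 416 at a minimum mean of 100, 1359 with the replicate block, 1161 with array weights and 128 in the model of 36 libraries, and 458 to 1013 when 1 library was left out. The replicate block changed no call other than those of AC102496.1 and Gm27177. For the test of age, 2 genes were called without a filter (Gm10190 and Gm42429) and 0 to 1 when 1 library was left out; for sex, 0 under every setting tried. The median of the mitochondrially encoded genes was 0 under quantile normalization, and that of the activity-regulated genes was 0.0411 without WT replicate 3. The causes were not tested. By alternatives added after seeing the data, 4 to 20 activity-regulated genes were higher at an unadjusted p under 0.05, the fewest in the model of 36 libraries and the most without WT replicate 1, and of the mitochondrially encoded genes 0 (both larger models) to 7 were lower. Of 1200 values of 71 other genes whose difference is given, 0 turned direction (mt-Nd4 stood at 0 under quantile normalization), 16 no longer passed the threshold (Entpd4 and Gm42429) and 5 newly did (AC102496.1, Gm27177 and Hoxb8).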
